A study of Mus musculus with 8 samples.

Results

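The genes described here encode the pore-forming subunits of potassium channels and the subunits of voltage-gated sodium channels. They were chosen by symbol alone, as the Kcn genes with a subfamily letter and number and the Scn genes with a number and a or b, and the accessory Kcnip and Kcne genes were left out. The rule found 90 of the 19787 genes in the count matrix, 76 for potassium channels and 14 for sodium channels. The counts are of RNA from single nuclei, taken from spinal cord at low thoracic level in C57BL/6 mice of wild type genotype and sequenced with 10x version 3 chemistry in 8 libraries from 3 experiments. Experiment 1 took uninjured cords and sorted nuclei into GFP-positive neurons that project to the lumbar cord (traced, 2 libraries) and GFP-negative nuclei (untraced, 2 libraries). Experiment 2 took cords after a hemisection that was followed by natural repair (2 libraries) and uninjured cord (1 library). Experiment 3 took GFP-positive neurons labelled as regenerating (1 library). The sources used here do not give the age of the animals, the time after injury or the number of animals behind each library. P-values therefore measure only the spread between these libraries, which may be technical.

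Voltage-gated sodium channels open within the rising phase of the action potential and carry the inward current that spreads it along the axon. Each has a large alpha subunit that forms the pore and small beta subunits that set gating and placement in the membrane. Potassium channels carry outward current that repolarizes the neuron, sets the resting potential and shapes the rate and pattern of firing. Voltage-gated potassium channels (Kv) fall into subfamilies: Kv1 and Kv7 limit excitability near threshold, Kv3 supports fast repeated spikes, Kv4 carries the transient A-type current, and Kv2 carries a slow delayed current. The EAG, ERG and ELK channels are further voltage-gated families, SK channels open with calcium and the Slack and Slick channels with sodium. Inward rectifiers (Kir) and 2-pore channels (K2P) set the resting potential, and in glia Kir channels take up potassium released by active neurons. In the spinal cord these genes set how sensory interneurons, premotor interneurons and motor neurons fire.

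The potassium channels are joined by a short selectivity filter in the pore, and 3 stretches of coding sequence show it in genes that the comparison of hemisection with uninjured neurons turns on. Each line gives 39 bases of the coding strand, 5′ to 3′, with the 15 bases for the filter in capitals, from the GENCODE M21 transcripts on the mouse build GRCm38.
Kcna1, chr6:126642216-126642254, minus strand: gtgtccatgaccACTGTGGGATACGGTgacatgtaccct
Kcna2, chr3:107105212-107105250, plus strand: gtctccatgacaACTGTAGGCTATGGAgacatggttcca
Kcnj13, chr1:87389009-87389047, minus strand: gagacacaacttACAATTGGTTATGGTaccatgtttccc
The voltage-gated Kcna1 and Kcna2 had 29 of 39 bases in common, and each had 20 of 39 in common with the inward rectifier Kcnj13. Within the capitals the 3 pairs shared 10 or 11 of 15 bases. The search read each coding sequence in frame for threonine, then valine, isoleucine or leucine, then glycine, then tyrosine or phenylalanine, then glycine, and found it in 63 of the 76 potassium channel genes. It occurred as a pair of copies in 11 of the 14 K2P genes, which carry 2 pore domains per subunit, and in 0 of the 14 sodium channel genes. A match is a description of letters and says nothing of function in these nuclei.

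The deposited annotation assigns each nucleus to neurons, astrocytes, oligodendrocytes, oligodendrocyte precursors (OPC), microglia or vascular cells. The libraries held from 25 to 2148 neurons, and the median neuron had 5767 to 16490 UMIs (distinct captured transcripts) in 7 libraries but 488 in the regenerating library. In all 8 libraries the 90 genes together took 1.08% to 1.30% of the UMIs of neurons. The uninjured library stood apart from the rest: 0.464% of its neuronal UMIs were mitochondrial, against 0.0590% to 0.171% elsewhere. The sum of 5 oligodendrocyte markers in its neurons was 646 counts per 1000000 UMIs (CPM), against 67.5 to 225 CPM. The 7 neuron markers were detected in the neurons of every library, at a sum of 2882 to 3715 CPM. A barcode was shared between libraries in 4 cases, among nuclei whose names carry one; 4489 nuclei of the uninjured library and all 238 of the regenerating library carry none. Among the neurons, 45.0% and 24.0% of the traced libraries were ventral excitatory subtypes, against 5.69% to 14.8% in the untraced, hemisection and uninjured libraries. Levels summed over neurons therefore cannot tell a change in the share of subtypes from a change within them, except where subtypes are given.

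Which cells of the cord hold which channel was asked first, from the mean CPM of each class over the libraries with at least 20 nuclei of it. Of 82 genes with at least 20 UMIs in all, 45 were highest in neurons, 9 each in OPC and vascular cells, 8 in astrocytes, 6 in oligodendrocytes and 5 in microglia. The other 8 genes had too few UMIs to place, among them Kcnj1, singled out here after its values were seen, which had 0 UMIs in neurons. The 20 UMIs were counted over all classes together, so a gene could be placed on few UMIs of its highest class. Kcns1, Kcng1 and Kcnk7, for example, were placed in vascular cells on 4, 3 and 2 UMIs of that class. Kcnb2, for a delayed Kv2 channel, stood at 933 CPM in neurons and between 23.0 and 217 CPM in the other classes. Kcnc2, for a Kv3 channel of fast-firing cells, stood at 799 CPM in neurons and at 20.1 to 47.5 CPM elsewhere. Kcnc1, from the same subfamily, was also highest in neurons, at 159 CPM.

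Several channels known from neurons were as high or higher in another class. Kcnd2, for the main Kv4 channel of the A-type current, was at 4736 CPM in OPC, 3222 CPM in astrocytes and 2565 CPM in neurons, but at 73.7 CPM in oligodendrocytes. Its level thus separated the precursors from the mature oligodendrocytes by a wide margin. Kcnq3, for a Kv7 channel of the M current, was at 1392 CPM in oligodendrocytes and 810 CPM in neurons. Kcnq5, from the same subfamily, was at 680 CPM in OPC, 579 CPM in neurons and 39.4 CPM in oligodendrocytes. Kcna1, a Kv1 channel known from the axon beside the node of Ranvier, was at 307 CPM in oligodendrocytes and 90.0 CPM in neurons, and Kcna6 of the same subfamily, which was chosen after its values were seen, was at 174 and 38.1 CPM. Kcnh8, an ELK channel, was at 657 CPM in OPC and 142 CPM in neurons. Kcnn2, an SK channel, was about level between neurons at 409 CPM and astrocytes at 387 CPM.

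Of the 14 sodium channel genes, 9 were highest in neurons, 3 in vascular cells and 1 in microglia, and 1 had too few UMIs to place. The gene in microglia, Scn11a, had 2 UMIs in that class and 17 in neurons. Scn10a, among those in vascular cells, had 2 UMIs there and 15 in neurons, so these 2 placements rest on very few counts. Scn4b was placed in vascular cells at 20.6 CPM, a value of the uninjured library alone, against a mean of 11.4 CPM in neurons over all libraries. In the uninjured library itself Scn4b was higher in neurons than in vascular cells, by the neuronal value given below. Scn1a stood at 551 CPM in neurons and at 24.3 to 233 CPM in the other classes, and Scn2a at 414 CPM and at 20.04 to 165 CPM. Both encode alpha subunits of the central nervous system, and in both the next class was OPC. Scn7a, for an atypical alpha subunit known as a sodium sensor, was at 67.9 CPM in vascular cells and 12.3 CPM in neurons.

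The genes that stood highest in glia relative to neurons were mostly inward rectifiers and 2-pore channels. Astrocytes held Kcnj10, the Kir4.1 channel of potassium uptake, at 365 CPM against 3.75 CPM in neurons, and its partner Kcnj16, the Kir5.1 channel, at 124 against 0.898 CPM. In the untraced library 1 and the uninjured library, which had enough astrocytes, Kcnj16 was at 130 and 117 CPM. The pair parted in the oligodendrocyte lineage: Kcnj10 was at 83.8 CPM in OPC and 166 CPM in oligodendrocytes, while Kcnj16 was at 53.4 CPM in OPC and 0.855 CPM in oligodendrocytes. Kcnk1, a K2P channel, was at 270 CPM in astrocytes and 30.0 CPM in neurons.

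Microglia held Kcnk13, the THIK-1 channel that sets their resting potential, at 354 CPM, and Kcnk6, the TWIK-2 channel, at 79.3 CPM. Kcnk13 was not particular to microglia, since it was at 398 CPM in oligodendrocytes and 95.8 CPM in OPC, against 24.2 CPM in neurons. Kcnk6 was at 0.279 to 2.06 CPM in the other classes. Kcnj2, the Kir2.1 channel, was at 28.7 CPM in microglia and 13.1 CPM in oligodendrocytes. Kcnn4, the intermediate-conductance calcium-activated channel, had 50 UMIs in microglia, 42 of them in hemisection replicate 2. Kcnk5, another K2P channel, was highest in oligodendrocytes at 6.55 CPM, where it had 203 UMIs.

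Vascular cells reached 20 nuclei in the uninjured library alone, so their values are from 1 library and have counting error only. Kcnj8, the Kir6.1 pore of the ATP-sensitive channel of vessel walls, had 82 UMIs there, 99.4 CPM with an exact Poisson interval of 79.1 to 123 CPM, and 5 UMIs in all neurons of the 8 libraries. Kcnj13, the Kir7.1 channel, was at 69.1 CPM with an interval of 52.3 to 89.5 CPM. Kcnk2, the stretch-sensitive TREK-1 channel, was at 399 CPM with an interval of 357 to 444 CPM, against 93.3 CPM in neurons. All 3 were thus well above the mean neuronal level over the 8 libraries, which was 6.26 CPM for Kcnj13. The neurons of the uninjured library held more Kcnj13 than that mean, though less than the vascular cells, by the value given below. As also given below, reads of Kcnj13 may include those of Gigyf2. The class levels are descriptions without a test, since the classes were drawn from these nuclei. The 7 neuron markers summed to 63.7 and 615 CPM in astrocytes, 49.3 to 665 CPM in oligodendrocytes, 377 to 799 CPM in OPC, 40.8 to 957 CPM in microglia and 561 CPM in vascular cells, highest in the uninjured library in each class with more than 1 library. Their part in the class levels was not tested.

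**Figure D1:**
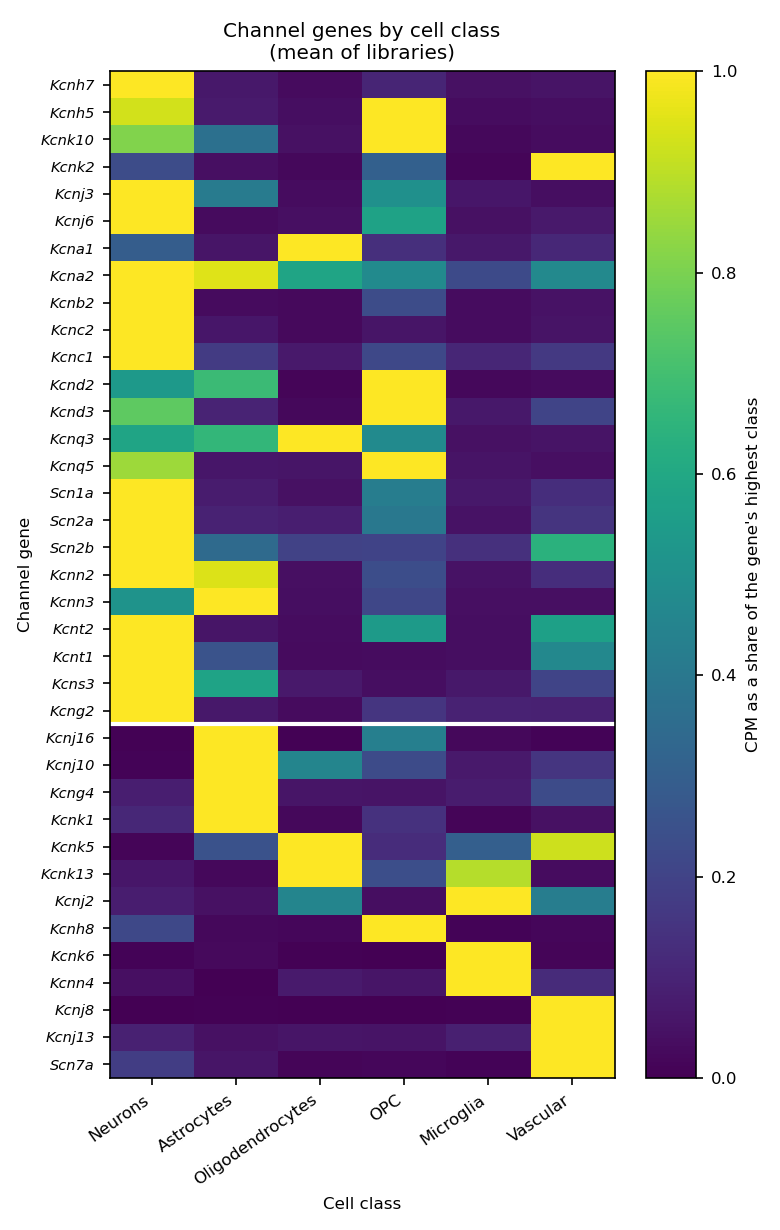
Levels of the named channel genes (rows) in 6 cell classes (columns), as the mean CPM over libraries with at least 20 nuclei divided by the gene's highest class, from 0 (dark) to 1 (yellow). The genes above the white line were named for neurons, up to 2 per subfamily, and those below it were named for a glial or vascular class; Kcnd2, Kcnq5 and Kcnh8 peak in OPC, Kcnq3 and Kcna1 in oligodendrocytes, and Kcnj10 and Kcnj16 in astrocytes.

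How the channels differ among neuron subtypes was read from the uninjured library, which had at least 20 nuclei in 24 subtypes, and read again in hemisection library 1, which had them in 15 of these. Subtype names start with D, M or V, read here as position from dorsal to ventral and E or I, read as excitatory or inhibitory, and go on with marker genes. For the 18 genes named here (of the 12 with most UMIs and the 8 with the highest top subtype relative to the median subtype) the order of the 15 subtypes had a Spearman correlation of 0.55 to 0.96 between the libraries. These points share no nuclei but share the annotation, and they are given as a description. The highest of the 15 subtypes was the same in both libraries for 11 of the 18 genes.

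Several Kv genes had their highest level in a dorsal subtype. Kcnc2 was at 2441 CPM in DE_Tac2_Nmu in the uninjured library, where the median subtype had 557 CPM and the lowest, VIP_V1_Mafa, had 107 CPM. In hemisection library 1 it was again highest in DE_Tac2_Nmu, at 2483 CPM. Kcnd2 was at 6667 CPM in DE_Reln_Trhr and 662 CPM in DE_Nts. Kcnb2 went the other way in the first of these subtypes, at 15.004 CPM in DE_Reln_Trhr and 2267 CPM in DI_Nxph1_Npy, while in hemisection library 1 it was highest in DI_Rorb, at 2352 CPM. DE_Reln_Trhr was thus the highest subtype for a Kv4 gene and the lowest for a Kv2 gene, on the counts of 23 nuclei. With 18 nuclei in hemisection library 1, DE_Reln_Trhr was not read again there. Kcnq5 ran from 22.3 CPM in DE_Nts to 1550 CPM in DE_Reln_Trhr, and Kcnq3 from 278 CPM in motor neurons (MN) to 1259 CPM in DE_Cck_Cpne4.

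DE_Nts and DE_Reln_Trhr were the highest subtypes for a second group of channels. Kcnt2, for the sodium-activated Slick channel, was at 1115 CPM in DE_Nts against a median of 256 CPM, and at 1561 CPM in hemisection library 1. Kcnh8 was at 806 CPM in DE_Nts against a median of 45.7 CPM, but in hemisection library 1 it was highest in DE_Maf_Cpne4, at 610 CPM. Kcng2, which codes for a silent subunit that joins Kv2 subunits and alters them, was at 223 CPM against a median of 6.10 CPM, and was again highest there in hemisection library 1, at 151 CPM. In DE_Reln_Trhr, Kcnh5, an EAG channel, was at 1070 CPM against a median of 104 CPM. Kcng3, another silent subunit, was at 50.01 CPM there against a median of 3.63 CPM, and had 254 UMIs in all neurons. Both values come from 23 nuclei of the uninjured library, since this subtype had too few in hemisection library 1 to be read again.

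Other genes had their peaks elsewhere. Kcnk13 was at 112 CPM in DE_Tac2_Nmu and 85.7 CPM in DE_Sox5_Qrfpr against a median of 15.6 CPM, and in hemisection library 1 DE_Sox5_Qrfpr was the highest, at 91.5 CPM. Scn1a and Kcnh7, an ERG channel, peaked in DE_Maf_Cpne4 at 1009 and 987 CPM, and Kcnh7 was lowest in motor neurons at 17.8 CPM. In hemisection library 1 Scn1a again peaked in DE_Maf_Cpne4, but Kcnh7 in VIL_V1_Sp8, at 926 CPM. Kcnj3, a Kir channel opened by G proteins, ran from 141 to 678 CPM, and Kcnn2 from 100 to 722 CPM. Scn2a varied least of the 18 between its top and median subtype, 584 and 394 CPM. Kcns3, another silent Kv2 partner, was at 111 CPM in VIP_V1_Foxp2, a ventral inhibitory subtype of the V1 class, against a median of 15.8 CPM, but in hemisection library 1 it was highest in DE_Rreb1_Zim1, at 86.4 CPM. Scn8a, the alpha subunit of the nodes of Ranvier, was also highest in VIP_V1_Foxp2, at 636 CPM and again in hemisection library 1 at 453 CPM, and lowest in DE_Reln_Nmur2, at 86.3 CPM.

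**Figure D2:**
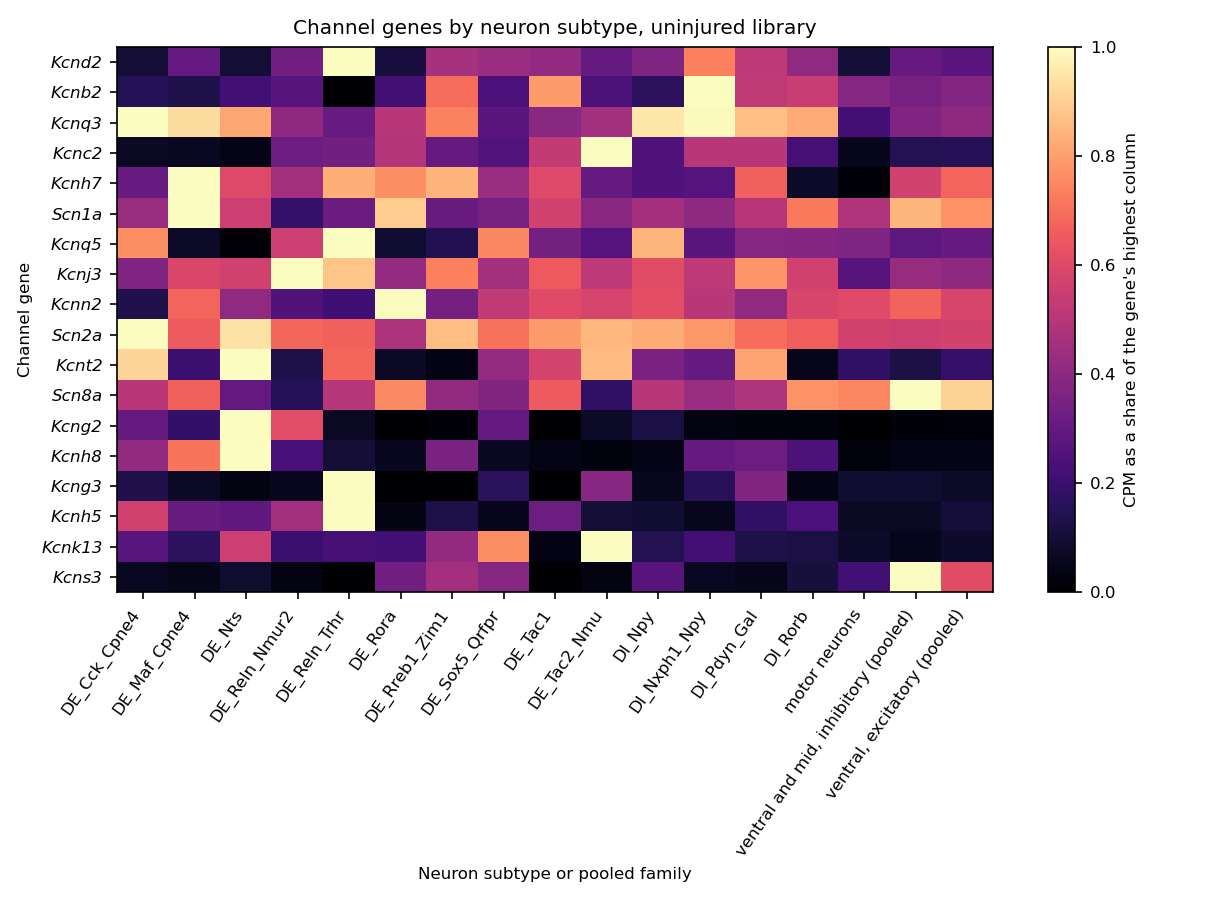
Levels of the 18 named channel genes (rows) in the neurons of the uninjured library, as CPM divided by the gene's highest column, from 0 (dark) to 1 (pale). Columns are the dorsal subtypes with at least 20 nuclei, motor neurons, and the ventral excitatory and the middle and ventral inhibitory subtypes pooled; Kcns3 and Scn8a are highest in the pooled inhibitory column, and Kcng2, Kcnh8 and Kcnt2 in DE_Nts.

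Families of subtypes were compared within each library that had at least 20 nuclei of both, without the regenerating library. In all 5 such libraries 14 of 57 genes with at least 200 UMIs were higher in inhibitory than in excitatory neurons and 15 were lower. The same count was not made over all genes. Neither it nor the ventral and dorsal counts below therefore set the channel genes apart from others. Kcnb2 was 1.69 to 2.08 times as high in inhibitory neurons over the 5 libraries, and Kcnc2 was 1.09 to 1.55 times as high. Kcnk13 was 0.19 to 0.34 times as high and Kcnh5 0.38 to 0.58 times. Kcnb2 and Kcnc2 thus leaned to the inhibitory side and Kcnk13 and Kcnh5 to the excitatory side in each library.

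Between ventral and dorsal neurons, 12 of 56 genes were higher ventrally in all 4 libraries and 20 were lower. Scn8a was 1.28 to 2.17 times as high ventrally, Kcns3 1.85 to 7.26 times and Kcnn2 1.15 to 1.31 times. Kcnh8 was 0.08 to 0.12 times as high ventrally, Kcng2 0.03 to 0.11 times, Kcnt2 0.31 to 0.53 times and Kcnc2 0.38 to 0.62 times. Among inhibitory neurons alone, Kcns3 was 12.4 to 13.9 times as high in ventral as in dorsal subtypes, in 3 libraries. These ratios use the families of the annotation and carry no test.

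Traced neurons were compared with untraced neurons to ask how channel genes differ in neurons that project to the lumbar cord. By edgeR's quasi-likelihood test with Benjamini-Hochberg adjustment over 11601 genes, 0 of the 59 channel genes that passed the filter on low counts were called at an adjusted p under 0.05, where 0.362% of all genes were. DESeq2 called 1 channel gene, Kcnt2, where it called 46 of 5761 genes. By edgeR 8 channel genes had an unadjusted p under 0.05, as did 930 of all 11601 genes. Without hemisection replicate 2, traced replicate 1, traced replicate 2 or untraced replicate 1 the count by edgeR was 1, where 0.75%, 0.172%, 0.303% and 0.834% of all genes were called in that order. The median log2 fold change was -0.04 over the 59 genes and -0.00 over all genes. The 31 genes that the filter left out were not tested.

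The 3 genes with the smallest p were Kcnt2, Kcns3 and Kcnh8. Kcnt2 stood at 211 and 306 CPM in traced replicates 1 and 2 and at 467 and 428 CPM in the untraced ones. Its traced values lay below both untraced values, with a log2 fold change of -0.91 ± 0.20 (SE, adjusted p 0.0633 by edgeR). Kcns3 stood at 40.6 and 87.0 CPM in traced and at 19.95 and 17.9 CPM in untraced neurons. Its traced values lay above both untraced ones, with a log2 fold change of 1.501 ± 0.36 (adjusted p 0.0912 by edgeR). Kcnh8 stood at 112 and 14.99 CPM against 158 and 261 CPM. Its traced values were also the lower ones, but they differed widely from each other (log2 fold change -1.42 ± 0.41, adjusted p 0.196 by edgeR). With the replicate number that the titles of experiment 1 share as a block, which pairs each traced library with its untraced one, Kcnt2 fell (-0.91, adjusted p 0.0196 by edgeR) and Kcns3 rose (1.42, adjusted p 0.0297), 2 calls where 1.22% of all genes were called. Of these 3 genes, Kcns3 was higher in ventral and Kcnt2 and Kcnh8 in dorsal neurons, as given above, and 40 of 80 and 12 of 25 traced neurons were ventral, against 17.8% and 11.4% of untraced neurons. The part of these shares in the differences was tested only among dorsal excitatory neurons, where the log2 fold changes were -0.79 for Kcnt2, 1.80 for Kcns3 and -0.95 for Kcnh8, none of them called (adjusted p 0.426, 0.379 and 0.610 by edgeR).

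Neurons after hemisection were compared with the uninjured neurons of the same experiment to ask how channel genes differ after injury and repair. Of 59 genes tested, 7 fell and 1 rose, which is 13.6% against 5.56% of all genes. For all genes the share that fell was 4.61% and the share that rose 0.948%. Among the fallen genes were Scn4b, for a sodium channel beta subunit, the alpha subunit Scn9a, the Kv1 channels Kcna1 and Kcna2 and the inward rectifier Kcnj13. The gene that rose was Scn3a, an alpha subunit best known from development. The median log2 fold change was 0.03 over the 59 genes and also 0.03 over all genes, so the genes as a whole did not lean to either side. The uninjured group is a single library, assumed by the fit to vary like the replicated groups. The count of calls was 1 without hemisection replicate 1 (1.53% of all genes), 5 without hemisection replicate 2 (2.67%) and 13 without untraced replicate 2 (10.3%), and DESeq2 called 2 (1.58%). The mitochondrial share and the oligodendrocyte markers of the neurons, given above, were also highest in the uninjured library. In neurons without a UMI of those markers, of which that library had 19, edgeR called 0 of 39 channel genes tested, where 0.439% of all genes were called. Of the 8 genes called in all neurons 6 were tested there, 5 with the same sign. The log2 fold change was -1.34 for Kcna1 (adjusted p 0.391 by edgeR), -0.82 for Scn9a (0.585), -0.21 for Kcna2 (0.949) and 1.27 for Scn3a (0.376).

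By subfamily, the beta subunits of sodium channels had a median log2 fold change of -1.51 over 4 genes, the Kv1 genes of -0.72 over 4 and the Kir genes of -0.64 over 8. The sodium-activated and Slo3 genes had a median of 0.50 over 3. That of the Kv4 genes was 0.32 over 3 and that of the Kv7 genes 0.21 over 5. There were 0 calls by edgeR in these 3 subfamilies. Against untraced neurons, the hemisection medians were -0.27 (beta subunits), -0.27 (Kv1), -0.09 (Kir), 0.03 (sodium-activated and Slo3), 0.08 (Kv4) and 0.01 (Kv7). For the uninjured library against untraced neurons, both without injury, they were 1.1, 0.65, 0.46, -0.44, -0.102 and -0.28 in that order. The part of the uninjured library in these medians was not tested.

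Scn4b (chr9:45138395-45154152, GRCm38), for the beta subunit of resurgent current, stood at 7.98 and 8.60 CPM after hemisection, at 40.2 CPM in the uninjured library and at 3.00 to 13.1 CPM in the traced and untraced libraries. The traced and untraced neurons are also uninjured, so the uninjured library of experiment 2 was above all other libraries, injured or not, and the fall of 2.20 ± 0.41 on the log2 scale (SE, adjusted p 0.00454 by edgeR) is measured against it.

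Kcna1 (chr6:126640397-126646384) stood at 64.0 and 53.5 CPM in the hemisection libraries and at 168 CPM in the uninjured one, with 53.7 to 116 CPM in the traced and untraced libraries. Kcna2 (chr3:107101146-107115005) stood at 43.6 and 49.7 CPM and at 92.5 CPM, with 48.0 to 58.7 CPM in the other uninjured libraries. These subunits join in 1 channel of the axon, and both were highest in the uninjured library of experiment 2. Kcna1 fell by 1.38 ± 0.29 (adjusted p 0.00933 by edgeR) and Kcna2 by 0.90 ± 0.24 (adjusted p 0.0366).

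Scn9a (chr2:66480080-66634962), for the alpha subunit known from pain fibres, stood at 116 and 131 CPM in the hemisection libraries and at 264 CPM in the uninjured one. The traced and untraced libraries stood at 79.4 to 191 CPM, on both sides of the hemisection values (fall by 1.00 ± 0.27, adjusted p 0.0425 by edgeR). Kcnj13 (chr1:87386363-87394729) stood at 4.30 and 3.82 CPM and at 17.0 CPM, from 35, 4 and 352 UMIs (fall by 1.92 ± 0.48, adjusted p 0.0269). It lies within Gigyf2 on the opposite strand. The sources used here do not say whether the counting used strand, so its reads may include those of Gigyf2. Scn3a (chr2:65457118-65567627) stood at 246 and 318 CPM in the hemisection libraries, 161 CPM in the uninjured one and 186 to 283 CPM in the traced and untraced libraries. The uninjured library was its lowest of all 8 (rise of 0.91 ± 0.25, adjusted p 0.0460 by edgeR).

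**Figure D3:**
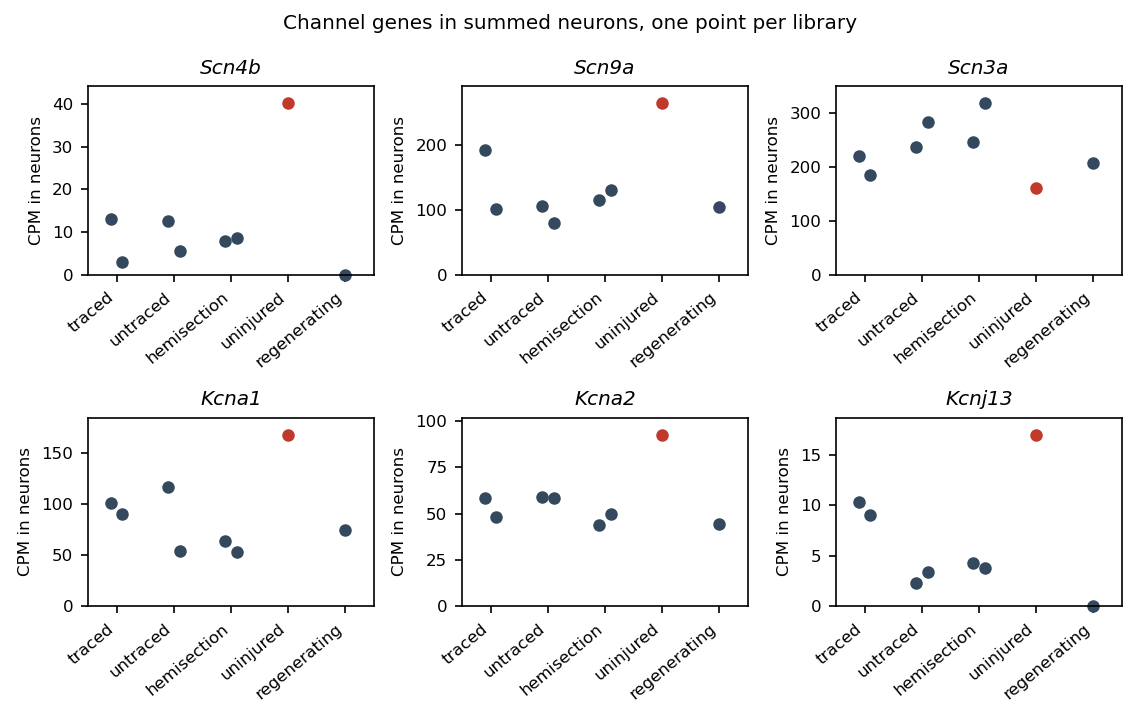
CPM of 6 called channel genes in the summed neurons of each library (vertical axes from 0), with 1 point per library in 5 groups along the horizontal axis and the uninjured library of experiment 2 in red. The red point is the highest of the 8 libraries for 5 genes and the lowest for Scn3a, while the hemisection points lie among or near those of the traced and untraced libraries.

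In the 15 subtypes with at least 20 nuclei in both hemisection library 1 and the uninjured library, Scn4b was lower after hemisection in 15, Kcna1, Kcna2 and Kcnj13 in 14 and Scn9a in 12, while Scn3a was higher in 14. The median over the 59 tested genes was 9 of 15 lower, 12 genes were lower in at least 14 and 4 were higher in at least 14. The same counts were not made over all genes. Both libraries are among those that gave the calls, so the subtypes are no separate evidence for them. Among dorsal excitatory neurons alone 1 channel gene was called, where 2.96% of all genes were. Kcna1 then had a log2 fold change of -0.43 (adjusted p 0.875 by edgeR) and Scn9a of -0.10 (adjusted p 0.988). With neurons of at most 0.1% mitochondrial UMIs, which left 147 of 2148 neurons of the uninjured library, 9 channel genes were called, where 4.19% of all genes were: Scn4b, Scn9a, Kcna1, Kcnj13 and Scn3a kept their calls, Kcna2 lost it (log2 fold change -0.95, adjusted p 0.0815 by edgeR), and Kcnc2 and Kcng4 were added.

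Against the untraced neurons of experiment 1, 0 of 59 channel genes were called by edgeR in hemisection neurons, where 0.19% of all genes were. By edgeR 2 channel genes had an unadjusted p under 0.05, as did 448 of all 11601 genes. DESeq2 also called 0, where it called 8 of 12787 genes. Kcna1 then had a log2 fold change of -0.56 ± 0.26 and Kcna2 of -0.33 (adjusted p 1.0 for Kcna1 and Kcna2 by edgeR), and Scn2b, another beta subunit, had -0.61, from 24.3 and 31.5 CPM against 52.7 and 23.5 CPM. Scn3b, for a further beta subunit, stood at 53.4 and 46.8 CPM after hemisection against 37.6 and 32.4 CPM in untraced neurons, a difference of 0.53 ± 0.23 that was not called. The groups did not overlap for it, while those of Kcna1 were 64.0 and 53.5 CPM against 116 and 53.7 CPM. How often groups of this size do not overlap was not counted over all genes, so this does not set Scn3b apart.

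The uninjured library was also set against the untraced neurons, both without injury. Here 4 of 59 channel genes rose and 0 fell, with 2.58% of all genes called, 2.07% higher and 0.509% lower. Among them were Scn9a, higher by 1.39 ± 0.28 (adjusted p 0.0143 by edgeR), Kcnj13 by 2.64 ± 0.55 (0.0188) and Scn4b by 1.88 ± 0.42 (0.0251). This comparison shares the uninjured library with hemisection against uninjured neurons, and the untraced libraries with the other comparison. The count was 8 without untraced replicate 1, where 4.75% of all genes were called. Experiment and group cannot be told apart for the uninjured library.

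The 7 genes that fell are short except Scn9a, which is 155 kb long. The median length of the 7 was 13.9 kb, against 88.3 kb for the 51 tested channel genes that were not called. Across the 59 genes, length and log2 fold change had a Spearman correlation of 0.56 in hemisection against uninjured neurons, and across 11531 genes it was 0.31. Against untraced neurons it was 0.27 over the 59 genes and 0.30 over all, and for the uninjured against the untraced neurons it was -0.55 and -0.16. Genes are not independent replicates, and the values are a description. The part of length in the calls was not tested.

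**Figure D4:**
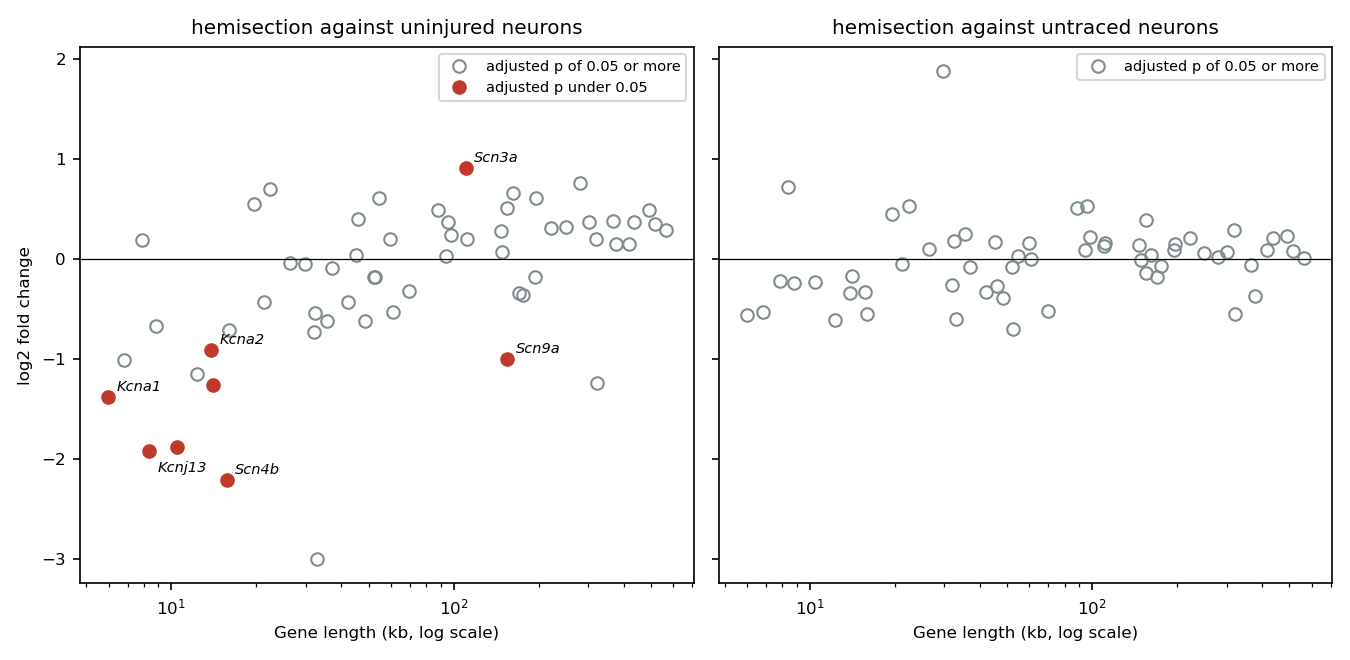
Gene length (horizontal, kb, log scale) against log2 fold change (vertical) of the 59 tested channel genes in neurons, for hemisection against uninjured (left) and hemisection against untraced neurons (right), with filled red points for adjusted p under 0.05. On the left, 6 of the 7 genes that fell are under 20 kb and Scn9a is the exception; on the right no gene was called.

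Regenerating neurons were compared with traced neurons to ask which channel genes differ in neurons labelled as regenerating. By edgeR 1 of 59 channel genes was called, Kcnj12, where 0.276% of all genes were called and 0.215% were higher. The median log2 fold change was -0.23 over the 59 genes and -0.28 over all genes. Kcnj12 (chr11:61022564-61071131), for the inward rectifier Kir2.2, stood at 141 CPM in the regenerating library and at 11.0 and 9.0 CPM in traced replicates 1 and 2, and at 4.48 to 9.45 CPM in the other 5 libraries. It rose by 3.70 ± 0.61 (adjusted p 0.0169 by edgeR).

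That rise rests on a single nucleus. The library had 19 UMIs of Kcnj12 in 238 neurons, and 18 of them lay in 1 neuron of subtype DE_Sox5_Qrfpr with 1171 UMIs in all. The other UMI lay in 1 further neuron. In the other libraries the most in 1 neuron was 1 to 3 UMIs, and Kcnj12 was found in 3.25% to 17.5% of neurons. Without that nucleus, an alternative chosen after seeing the data, the log2 fold change was -0.53 (adjusted p 0.888 by edgeR) and 0 channel genes were called.

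Kcnd3, for a Kv4 channel, was next by p and was not called. It stood at 430 CPM in the regenerating library, from 58 UMIs in 28 neurons, and at 222 and 153 CPM in traced neurons (1.11 ± 0.30, adjusted p 0.152 by edgeR). The regenerating library was the highest of the 8 for it. Scn4b and Kcnj13 had 0 UMIs in it; a count of 0 of 135012 UMIs allows up to 22.2 CPM, which is above their levels in traced neurons, so no difference was detectable at this depth. The regenerating library is the only one of experiment 3, so experiment, depth and group cannot be told apart.

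The accessory and related channel genes were listed separately. The list holds the Kv4 partners Kcnip and Dpp, the Kv1 partners, the BK channel and its subunits, the Hcn channels, the sodium leak channel, and the partners of sodium channels of the Fgf and ankyrin families. Of its 33 measured genes, 32 were tested in neurons and edgeR called 0 in each of the 5 comparisons, with 1 to 3 at an unadjusted p under 0.05 and 0 called by DESeq2. Of all 11601 genes, 448 to 2212 had an unadjusted p under 0.05 by edgeR in these comparisons. Hcn2, for a channel of the pacemaker current, came nearest: it stood at 36.5 and 41.1 CPM after hemisection, 77.0 CPM in the uninjured library and 49.2 to 84.0 CPM in the traced and untraced libraries (-0.91 ± 0.26, adjusted p 0.0509 by edgeR). Its hemisection values were the lowest of all libraries. Kcnip2, an A-current subunit, stood at 11.0 and 3.00 CPM in traced against 25.9 and 41.4 CPM in untraced neurons (-1.84 ± 0.46, adjusted p 0.119 by edgeR). Its groups did not overlap, but here too this was not counted over all genes. Kcnmb4, a BK channel subunit, stood at 59.3 CPM in regenerating neurons and 3.44 and 18.0 CPM in traced neurons (3.06 ± 0.98, adjusted p 0.199 by edgeR). In the regenerating library 3 counts amount to 22.2 CPM, so its value there rests on few UMIs. Their spread over nuclei was not examined.

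Oligodendrocytes and microglia were the only other classes with at least 20 nuclei in both hemisection libraries, the uninjured library and both untraced libraries. In microglia, 20 of 30 tested channel genes fell in hemisection against uninjured libraries and 0 rose, where 20.4% of all genes were called, 13.0% lower and 7.35% higher. A gene could pass the filter on low counts through the uninjured library alone, which favours a fall. With no filter 26 of 80 channel genes fell and 1 rose. Of all 16248 genes 2145 were then called, 1310 lower and 835 higher. In the main fit the median log2 fold change was -2.74 over the 30 genes and -0.08 over all genes. Kcnq5 stood at 0 and 6.40 CPM in hemisection replicates 1 and 2 and at 144 CPM in the uninjured library, and Kcnd3 at 0 and 3.20 CPM and at 62.8 CPM. Scn1a stood at 12.1 and 6.40 CPM and at 124 CPM. Of the 20 genes, 19 were lower in microglia than in neurons by class mean, and Kcnj10 was the exception.

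The markers of neurons moved with these genes. The 7 neuron markers summed to 957 CPM in the microglia of the uninjured library, and to 40.8 to 128 CPM in those of the other 4 libraries, with 4 of the 7 at 0 in hemisection replicate 1. The 90 channel genes together were at 2761 CPM there and at 796 to 1163 CPM in the others. The uninjured library was thus the highest for both sums. In microglia without a UMI of those markers, 33 of 366 in the uninjured library, 2 of 21 channel genes tested were called, Kcnq5 and Kcnd3, where 8.02% of all genes were. Of the 20 genes that fell in all microglia 16 were tested there, all 16 with a negative log2 fold change, and their median was -2.99 against -3.42 in all microglia. Scn1a, for example, had -3.81 (adjusted p 0.0569 by edgeR) and Kcnq3 -1.17 (0.501). Without hemisection replicate 2, which held 593 of the hemisection microglia where replicate 1 held 32, 1 was called, where 5.15% of all genes were. Between the uninjured library and the untraced ones, both without injury, 15 of 30 were higher in the uninjured library and 0 lower, where 11.9% of all genes were called, 9.98% higher and 1.91% lower. In nuclei without neuron-marker UMIs 0 of 21 were called by edgeR in that comparison, where 2.64% of all genes were. Of the 23 listed partner genes tested in microglia, 18 fell and 1 rose.

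The channels that were high in microglia were not called against the uninjured library. Kcnk13 stood at 350 and 399 CPM in the hemisection libraries, 298 CPM in the uninjured one and 387 and 338 CPM in the untraced ones (log2 fold change 0.34 ± 0.35, adjusted p 0.578 by edgeR). The hemisection values lay within or near the range of the 3 uninjured libraries. Kcnk6 stood at 48.3 and 48.0 CPM, 56.9 CPM, and 144 and 99.1 CPM in the untraced libraries. It was not called against the uninjured library (-0.23, adjusted p 0.808) but fell against the untraced ones (-1.38 ± 0.41, adjusted p 0.0225 by edgeR). In that comparison 3 of 30 channel genes fell and 0 rose, where 7.68% of all genes were called, 3.22% lower and 4.45% higher, and the others were Kcnd3 (-3.34, adjusted p 0.00425) and Kcnd1 (-3.65, adjusted p 0.0121), both for Kv4 channels. Kcnd1 stood at 0 and 3.20 CPM after hemisection and at 30.0 and 46.6 CPM in the untraced libraries, from 0, 4, 10 and 16 UMIs. Without hemisection replicate 2, 0 of the 3 were called by edgeR, where 2.32% of all genes were, each with an unadjusted p of 0.0358 to 0.0531. Kcnk6 also lost its call without hemisection replicate 1 (-1.36, adjusted p 0.0669 by edgeR) or untraced replicate 1 (-1.04, 0.349), Kcnd3 without untraced replicate 1 (-2.89, 0.103) and Kcnd1 without untraced replicate 2 (-3.31, 0.0633).

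In oligodendrocytes, 8 of 51 tested channel genes fell in hemisection against uninjured libraries and 0 rose, which is 15.7% against 7.61% of all genes, 4.77% lower and 2.83% higher. They included Scn1a, Scn8a, Scn9a, Kcnc1, Kcnh7 and Kcnt1, and all 8 were highest in neurons among the classes. Scn1a stood at 18.1 and 4.60 CPM after hemisection, against 83.5 CPM without injury in the same experiment (-3.64 ± 0.59, adjusted p 0.000798 by edgeR). The neuron markers summed to 665 CPM in the oligodendrocytes of that library and to 49.3 to 102 CPM in the other 4, and 7 genes were called in nuclei without them, where 6.52% of all genes were. In the uninjured against the untraced libraries 16 of 51 were higher and 0 lower, where 9.21% of all genes were called, 7.34% higher and 1.87% lower. In nuclei without neuron-marker UMIs 13 of 46 were higher and 0 lower by edgeR in that comparison, where 783 of 11167 genes were called. For hemisection against uninjured the count was 0 without hemisection replicate 2 (0.852% of all genes), 23 without untraced replicate 1 (14.4%) and 22 without untraced replicate 2 (12.8%).

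Kcna1, which had its highest class mean in oligodendrocytes, was at 464 and 350 CPM in the hemisection libraries, 234 CPM in the uninjured one and 283 and 205 CPM in the untraced ones, so that both hemisection values were the highest (0.82 ± 0.26, adjusted p 0.0573 by edgeR, not called). It was called with DESeq2's size factors (0.85, adjusted p 0.0494 by edgeR), where 920 of 11924 genes were called. With no filter it was called too (0.84, adjusted p 0.0146 by edgeR), where 1360 of 18135 genes were. Without untraced replicate 1 (0.87) or 2 (0.88) it was also called, but a larger share of all genes was called there, as given above. It was not called without hemisection replicate 1 or 2, or in nuclei without neuron-marker UMIs. Kcnq3 was at 945 and 1154 CPM after hemisection, 1530 CPM in the uninjured and 1680 and 1649 CPM in the untraced libraries. Both hemisection values were below all 3 others, and it fell against the untraced libraries (-0.79 ± 0.16, adjusted p 0.00741 by edgeR), as 1 of 51 channel genes, where 3.01% of all genes were called, 0.931% lower and 2.08% higher. Without hemisection replicate 1, which held 62 oligodendrocytes, it was not called (-0.62, adjusted p 0.121 by edgeR), where 2.16% of all genes were. Kcnma1, the BK channel pore among the listed partners, rose against the uninjured (1.90 ± 0.32, adjusted p 0.00105 by edgeR) and the untraced libraries (2.03 ± 0.26), comparisons that share the hemisection libraries. Kcna6 and Kcnk13 were not called in either comparison.

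**Figure D5:**
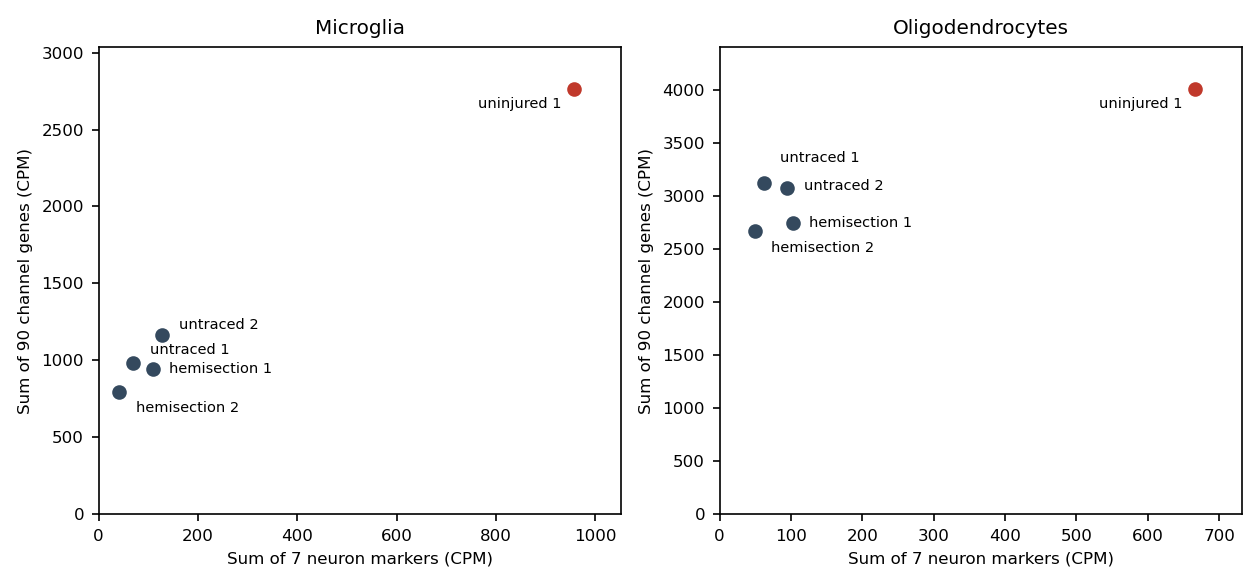
Sum of 7 neuron markers (horizontal, CPM) against the sum of the 90 channel genes (vertical, CPM) in microglia (left) and oligodendrocytes (right), with 1 point per library and the uninjured library of experiment 2 in red. The red point is highest on both axes in both classes, at 957 and 2761 CPM in microglia and 665 and 4008 CPM in oligodendrocytes.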

How the data were processed

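The authors deposited a single matrix of raw UMI counts with a table that gives each nucleus its library, class and neuron subtype; per the submitters' processing notes the reads were processed with Cell Ranger 4.0.0 and Seurat 3 on mm10/GRCm38. The sources used here do not give the filters on nuclei, the treatment of doublets, the use of strand or the way the annotation was made, and no doublets were removed here. Counts were summed per library and class and scaled to counts per 1000000 UMIs (CPM) for display. Intervals (95%, exact Poisson) and the limit that a count of 0 allows (3 counts) cover counting error only. Neuron depth ran from 135012 to 20739862 UMIs per library.

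Tests used edgeR 4.0.16 in R 4.3.3 on the sums, with TMM and filterByExpr (minimum count of 10, minimum total of 15). Since the smallest group had a single library, a gene could pass this filter through a single library. Quasi-likelihood tests used a model with 1 term per group, over all 8 libraries for neurons. For oligodendrocytes and microglia the model covered only the libraries with at least 20 nuclei of the class. Benjamini-Hochberg adjustment was over all genes tested, with calls at an adjusted p under 0.05. DESeq2 1.42.0 was an alternative, as were other filters, scalings, thinning, subsets of nuclei and leaving out each replicate. The scripts were tested on simulated data. The members and lists were chosen with earlier results of these data known. The genes named are every called member, or the 3 with the smallest p where fewer than 3 were called; by class the 2 per subfamily with most UMIs in neurons and the 4 with the highest level relative to neurons; by subtype the 12 with most UMIs and the 8 with the highest top relative to the median subtype; and of the partner genes those called or the 2 with the smallest p, of which some are counted only. Some genes that this rule names are not reported here. The traced and untraced libraries share numbers in their titles, and the correlation of their replicate differences was 0.148 over 10387 genes with a mean count of at least 10. With 2 pairs this does not establish that the numbers pair the samples, so the main fit has no block.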

Additional observations from a re-analysis of the deposited data

Results flagged for a closer look

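For 11 genes, 1 of them in both glial classes, both hemisection libraries lay on one side of the uninjured library in neurons and on the other side in a glial class. Among genes called in neurons or in the class, this held for 9 of 22 channel genes (40.9%) and 23.8% of all genes in microglia, and for 3 of 13 (23.1%) and 11.1% of all genes in oligodendrocytes. None of these differences between classes was tested, and all use the same uninjured library. In microglia the log2 fold changes, hemisection against uninjured, were -3.63 for Kcnb2 (0.37 in neurons), -2.70 for Kcnc2 (0.61), -3.28 for Kcnd2 (0.36), -4.29 for Kcnd3 (0.32), -3.57 for Kcnh7 (0.50), -2.54 for Kcnq3 (0.38), -4.55 for Kcnq5 (0.29), -2.98 for Scn2a (0.29) and -1.77 for Scn3a (0.91). In oligodendrocytes they were -2.11 for Kcnh7 (0.50 in neurons) and -2.81 for Kcnt1 (0.61). These 10 genes, Kcnh7 in both classes, were lower in glia and higher in neurons, and neuron markers in both glial classes were highest in the uninjured library, as given above. Kcna1 went the other way, at 0.82 in oligodendrocytes and -1.38 in neurons.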

How the results depend on the processing

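Counts of called channel genes moved with the processing more than directions did, and the causes were not tested unless stated. The calls over all genes moved as well. For traced against untraced neurons they were 42 of 11601 in the main fit and 46 of 5761 by DESeq2. They were 234 of 19074 with no filter, 141 of 11601 with the replicate block and 23 of 4739 thinned. For hemisection against uninjured neurons they were 645 of 11601, and 132 of 8350 by DESeq2. No filter gave 1101 of 19074, dorsal excitatory neurons 272 of 9180 and thinning 63 of 4739. The counts that follow are of channel genes. For traced against untraced neurons the count was 0; DESeq2 gave 1, no filter 3, the replicate block 2 and thinning the sums to the UMI total of the smallest library, which leaves the numbers of nuclei unequal, 1, and leaving out each replicate gave 0 to 1. For hemisection against uninjured neurons it was 8; DESeq2 gave 2, dorsal excitatory neurons alone 1, neurons without oligodendrocyte-marker UMIs 0 (19 uninjured neurons remained), no filter 13, thinning 0, and leaving out each replicate 1 to 13. For regenerating against traced neurons it was 1; neurons without oligodendrocyte-marker UMIs gave 0, no filter 4, removal of the single nucleus 0, thinning 0, and leaving out each replicate 0 to 1. For hemisection against untraced neurons it was 0, and 0 to 2 on leaving out each replicate. For uninjured against untraced neurons it was 4; DESeq2 gave 2, dorsal excitatory neurons 1, neurons without oligodendrocyte-marker UMIs 0, no filter 7, thinning 1, and leaving out each replicate 4 to 8. In microglia the count was 20, with 2 in nuclei without neuron-marker UMIs and 1 to 26 on leaving out each replicate. In oligodendrocytes it was 8, with 17 without a filter and 0 to 23 on leaving out each replicate. Against the untraced libraries, hemisection gave 3 in microglia (0 to 3 on leaving out each replicate) and 1 in oligodendrocytes (0 to 6, and 3 without a filter). The uninjured library gave 15 in microglia (7 to 20, and 0 in nuclei without neuron-marker UMIs) and 16 in oligodendrocytes (13 to 30). In oligodendrocytes without neuron-marker UMIs the uninjured library gave 13. Subsets by marker UMIs, by mitochondrial share and without the single nucleus were chosen after seeing the data. Over all genes, regenerating against traced neurons gave 32 of 11601, no filter 185 of 19074 and thinning 39 of 4739. Uninjured against untraced neurons gave 299 of 11601, DESeq2 63 of 8350, no filter 615 of 19074 and thinning 39 of 4739. In oligodendrocytes without a filter, hemisection gave 1360 of 18135 against the uninjured library and 596 of 18135 against the untraced ones. In microglia without a filter, hemisection against the uninjured library gave 2145 of 16248 genes and 27 of 80 channel genes.

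Directions reversed for Scn9a (0.13, hemisection against uninjured neurons, thinned), Kcnj12 (-0.53, without the single nucleus), Kcna1 and Scn2b against untraced neurons (0.13 for both without untraced replicate 1, with ranges on leaving out each replicate of -0.89 to 0.13 and -0.94 to 0.13) and Kcnj3 in microglia (0.083 without hemisection replicate 2, range -4.28 to 0.083). Among the other values of single genes in hemisection against uninjured neurons, 48 kept their direction and call and 27 kept the direction only. The number of genes highest in neurons was 42 with at least 50 nuclei, 41 pooled and 41 thinned to 1000 UMIs per nucleus, against 45. The regenerating library, with 135012 UMIs, limits what can be seen there.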

Other observations

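Kcnn4 had 42 UMIs in the microglia of hemisection replicate 2, or 33.6 CPM, and 0 to 4 UMIs in those of the other 4 libraries. In hemisection replicate 1 the count was 0 in 32 nuclei, with an upper interval bound of 44.5 CPM, so a level like that of replicate 2 could not be told from 0 there. The difference from the uninjured library was not called (2.67, adjusted p 0.154 by edgeR), but it was called with no filter and without hemisection replicate 1, untraced replicate 1 or untraced replicate 2 (2.97 to 3.16, adjusted p 0.00583 to 0.0299).

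Kcns3 stood at 7.41 CPM in regenerating neurons, from 1 UMI, and at 40.6 and 87.0 CPM in traced neurons. The log2 fold change of -2.95 ± 1.09 was not called (adjusted p 0.245 by edgeR). It was singled out after its values were seen.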
